A study of Mus musculus with 10 samples.

Results

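The 37 genes described here encode enzymes that add methyl groups to histone lysines, enzymes that remove them, and the 4 core subunits that the H3K4 methyltransferases share. They were chosen by symbol from the 54752 genes of the deposited files, and Polycomb enzymes were left out. By the mark written or erased they fell into 12 H3K4 writers and core subunits, 5 H3K4 erasers, 6 H3K9 writers, 6 H3K9 erasers, 2 H3K27 erasers, 4 H3K36 writers, 1 H3K36 eraser and 1 H3K79 writer. All 37 passed the filter on low counts, which left 12752 genes.

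The samples were primary embryonic fibroblasts, connective tissue cells grown from mouse embryos at E13.5, used at passage 2. The embryos came from males with an Oct4-GFP reporter allele (CBA/CaJ × C57BL/6J) and 129S4/SvJaeJ females. Every library, D0 included, came from cells that had carried retroviruses for Jdp2, Sall4, Esrrb and Glis1 for 48 hours, so D0 is not an uninfected control. The cells then spent 0, 1, 3, 5 or 7 days in a medium called iCD3 (D0, D1, D3, D5 and D7), with 2 libraries a day and 10 in all. The series text speaks of independent experiments, but no label says which cultures a replicate number stands for, so a p-value here reflects only how far these libraries spread.

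Methyl groups on histone lysines mark stretches of chromatin for other proteins to read. Methylation of H3K4 goes with active promoters and enhancers, that of H3K36 and H3K79 with transcribed gene bodies, and that of H3K9 and H3K27 with silent chromatin. In the MLL and SET1 enzymes the catalytic subunit works poorly alone and gains activity on a platform of WDR5, RBBP5, ASH2L and DPY30. Most of the erasers are JmjC-domain enzymes that need iron and 2-oxoglutarate, while KDM1A and KDM1B use FAD. In work on reprogramming, H3K9 methylation of fibroblast chromatin is known as a barrier and Wdr5 as a factor that pluripotent cells need.

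The estimated counts summed to between 2176457 and 4335931 per library in replicate 1, and to between 1329377 and 1492105 in replicate 2. The 37 genes took 0.255% to 0.448% of them, and 3 counts stood for 0.692 to 2.26 CPM, the library-scaled count used below. The library of D5 replicate 2 stood apart from the rest. In it 739 genes with transcripts over 6000 bases lay at a median of -0.75 from their own mean on the log2 scale, against -0.25 to 0.21 in the other 9 libraries. Of the 37 members, 33 were lower in replicate 2 than in replicate 1 at D5 (median log2 ratio -0.82), and 14 had their lowest value of all 10 libraries there. For the 11 members over 6000 bases the median ratio at D5 was -1.09, against -0.72 for the other 26. Results at D5 are therefore given with and without that library.

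**Figure D1:**
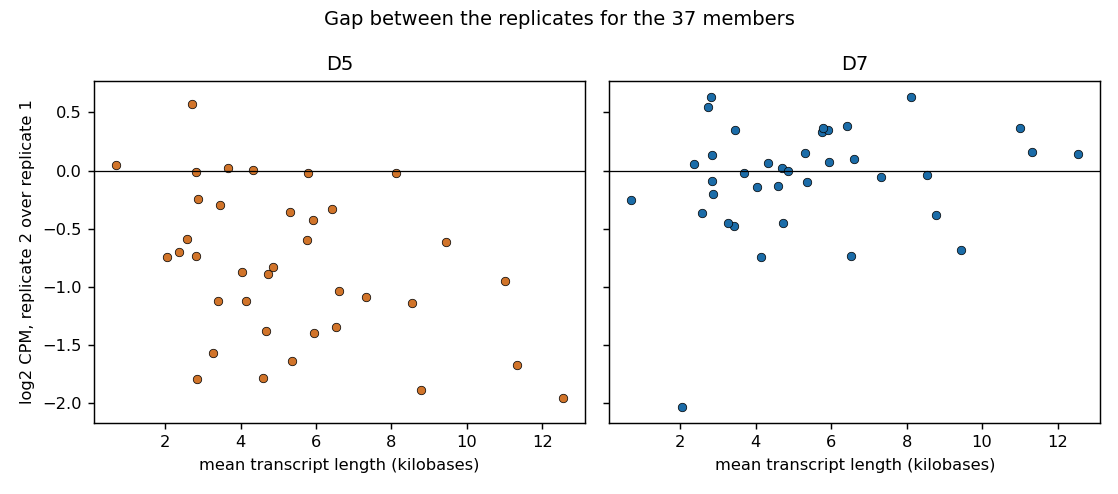
Log2 ratio of CPM in replicate 2 over replicate 1 (vertical) against mean transcript length in kilobases (horizontal) for the 37 members at D5 and D7, 1 point a gene. At D5 most points lie below 0, by a median of -0.82, while at D7 they scatter around 0 with a median of -0.01.

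The core subunits of the H3K4 methyltransferases were called as higher at D7 than at D0 in 4 of 4 cases, where 17.9% of all 12752 tested genes were called in either direction. Ash2l, Wdr5, Rbbp5 and Dpy30 were each 2.15 to 2.37 times as high at D7 as at D0, and both D7 libraries lay above both D0 libraries for each, as they did for 34.0% of all genes. Wdr5 encodes the subunit that holds a motif of the catalytic chain, Rbbp5 and Ash2l encode the pair that contacts the catalytic domain and the nucleosome, and Dpy30 encodes a small dimer that docks on Ash2l. On GRCm38 the genes lie on chromosome 8 (Ash2l, ENSMUSG00000031575, 25815996 to 25847694, minus strand), chromosome 2 (Wdr5, ENSMUSG00000026917, 27515157 to 27536535, plus strand), chromosome 1 (Rbbp5, ENSMUSG00000026439, 132477365 to 132505659, plus strand) and chromosome 17 (Dpy30, ENSMUSG00000024067, 74299474 to 74323944, minus strand).

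Ash2l had 62.6 and 63.6 CPM at D0, 77.0 and 73.3 at D1, 83.4 and 62.6 at D3, 156.5 and 103.6 at D5, and 168 and 131 at D7 (replicates 1 and 2 in this order, here and below). Its values up to D3 lay close together, and all 4 libraries of D5 and D7 lay above them. The log2 change of D7 over D0 was 1.25 (SE 0.30, adjusted p = 0.0164, edgeR's quasi-likelihood test with Benjamini-Hochberg adjustment, as for every adjusted p below unless another fit is named).

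Wdr5 had 72.4 and 74.8 CPM at D0, 73.3 and 63.3 at D1, 100.4 and 73.0 at D3, 170.3 and 143.8 at D5, and 169 and 147 at D7. The D5 and D7 libraries again lay above all earlier ones, and D7 differed from D0 by a log2 change of 1.10 (SE 0.28, adjusted p = 0.0187). Rbbp5 had 36.7 and 33.7 CPM at D0, 46.6 and 30.6 at D1, 43.9 and 33.5 at D3, 83.3 and 51.0 at D5, and 74.6 and 77.5 at D7. It was the core subunit nearest to the threshold (log2 change 1.11, SE 0.34, adjusted p = 0.0465).

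Dpy30 had 26.4 and 33.7 CPM at D0, 37.1 and 41.3 at D1, 54.7 and 37.3 at D3, 92.0 and 95.1 at D5, and 71.4 and 59.8 at D7. With both D5 libraries, and unlike the other 3, it had its highest mean at D5. Its transcript, the shortest of the members, did not show the gap between the replicates there. With D5 replicate 1 alone, the other 3 also stood above their D7 means at D5. The values were 156.5 against 149.5 CPM for Ash2l, 170.3 against 158.1 for Wdr5 and 83.3 against 76.1 for Rbbp5. For Dpy30 the log2 change of D7 over D0 was 1.14 (SE 0.31, adjusted p = 0.0269), and that of D7 over D5 was -0.51 (adjusted p = 0.815). Within replicates 1 and 2 its change of D7 over D5 was -0.36 and -0.66 on the log2(CPM + 1) scale. Both D7 libraries lay below both D5 libraries, a difference that did not pass the test.

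**Figure D2:**
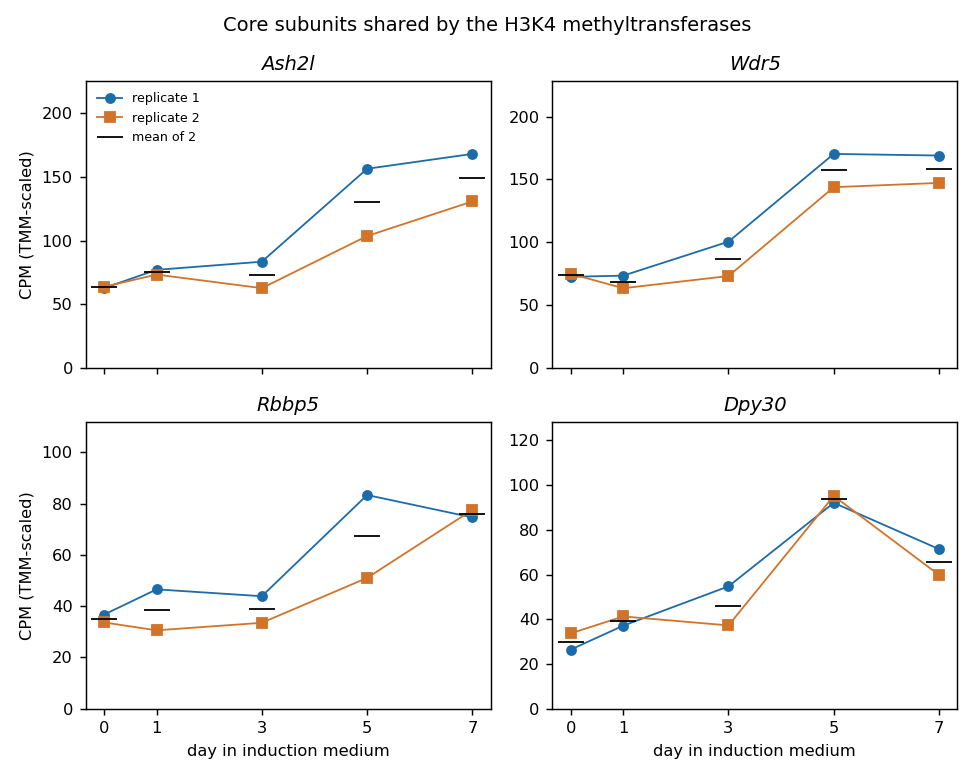
CPM (vertical, scaled by TMM) of Ash2l, Wdr5, Rbbp5 and Dpy30 by day in the induction medium (horizontal), with a line for each replicate and a bar at the mean of the 2 libraries. In each panel both D7 libraries lie above both D0 libraries, as they did for 34.0% of all tested genes. Ash2l is at 168 and 131 CPM at D7 against 62.6 and 63.6 at D0.

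Promoters are shown for the genes called between D7 and D0 that had one in the RefSeq table (GRCm38.p6), because these are the stretches upstream of the genes whose messages rose. Only bases outside the GENCODE gene are printed, 5′ to 3′ on the gene's strand, and capitals mark matches to the motifs named below. Where a gene has several starts, the outermost is shown, as Dpy30 had 4 in the table. The windows are chr2:27514897-27515146 (plus strand) for Wdr5, chr1:132477117-132477364 (plus strand) for Rbbp5, chr17:74323945-74324194 (minus strand) for Dpy30, and chr6:71632991-71633167 (minus strand) for Kdm3a, an H3K9 eraser described further on.
Wdr5: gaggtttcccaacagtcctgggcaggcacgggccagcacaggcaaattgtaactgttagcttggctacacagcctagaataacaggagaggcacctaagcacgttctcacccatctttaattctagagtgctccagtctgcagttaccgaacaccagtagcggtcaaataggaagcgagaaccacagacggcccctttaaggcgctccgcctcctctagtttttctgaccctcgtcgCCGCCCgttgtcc
Rbbp5: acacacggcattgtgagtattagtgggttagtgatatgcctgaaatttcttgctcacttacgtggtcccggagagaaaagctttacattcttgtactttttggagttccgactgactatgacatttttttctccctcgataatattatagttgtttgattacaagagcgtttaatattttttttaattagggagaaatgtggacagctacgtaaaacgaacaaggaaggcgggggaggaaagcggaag
Dpy30: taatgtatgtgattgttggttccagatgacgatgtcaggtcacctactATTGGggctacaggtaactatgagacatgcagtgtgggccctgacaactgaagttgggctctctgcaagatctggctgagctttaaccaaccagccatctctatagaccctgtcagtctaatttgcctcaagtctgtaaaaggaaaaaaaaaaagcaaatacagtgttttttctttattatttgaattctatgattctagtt
Kdm3a: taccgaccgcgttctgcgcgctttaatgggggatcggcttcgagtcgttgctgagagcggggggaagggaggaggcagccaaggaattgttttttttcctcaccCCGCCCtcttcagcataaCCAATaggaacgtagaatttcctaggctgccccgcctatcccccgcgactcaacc

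In all, 25 of the 37 members matched the table, and the 250 bases before each start were searched on both strands for 6 motifs. The site AAGGTCA, which Esrrb and related receptors bind, was present in 1 of the 25 (Kdm6a) and in 4.08% of all 32851 windows. The AP-1 site TGANTCA, to which Jdp2 and its relatives bind, was present in 3 (Kdm3a, Kdm4a and Kdm5c) and in 6.75% of all windows. The match in Kdm3a lies in the window of another of its starts, which is not printed. The E-box CACGTG was found in 3 members and 6.02% of windows, the ETS site CCGGAAG in 4 and 6.91%, the CCAAT box CCAAT in 8 and 33.9%, and the GC box GGGCGG in 16 and 32.7%. Of the 3 core subunits in the table, 1 had a GC box (Wdr5) and 1 a CCAAT box (Dpy30), and no other motif of the 6 was matched in their windows. No 2 of the printed matches overlap, and a gene with several starts had more chances of a match.

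Of the 8 H3K4 writers other than the core subunits, 0 were called between D7 and D0, against 17.9% of all genes. DESeq2, and edgeR with the replicate number as a block in the fit, called Setd7 as lower. With the block 28.5% of all genes were called. The median log2 change of the 8 writers was -0.02, and 4 of the 8 lay above 0. Kmt2a, a founding MLL enzyme of developmental genes, had 127 and 140.0 CPM at D7 against 127 and 180 at D0. Kmt2d, an enhancer H3K4 monomethyltransferase, had 93.5 and 121 CPM at D7 against 84.2 and 123.5 at D0. For both genes the D7 and D0 libraries overlapped. In between, Kmt2d had 119 and 157 CPM at D1, 150 and 183 at D3, and 107 and 54.9 at D5. Its log2 change of D7 over D3 was -0.64 (SE 0.36, adjusted p = 0.318).

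Setd1a, which with Setd1b provides much of the trimethylation at promoters, had 127 and 162 CPM at D7 against 89.1 and 130 at D0, and Setd1b had 33.9 and 53.2 CPM at D7 against 30.8 and 71.9 at D0. The largest positive change of the 8 was that of Kmt2b, an MLL enzyme of promoters (139 and 175 CPM at D7, 89.5 and 114.5 at D0, log2 change 0.62, SE 0.31, adjusted p = 0.205). Kmt2c, the sister enzyme of Kmt2d, followed with 0.56 (SE 0.52, adjusted p = 0.521). Kmt2e, an MLL family protein without clear activity of its own, was at -0.09 (SE 0.33, adjusted p = 0.887). It is nevertheless counted among the 8 and among all writers here. Kmt2e shares 9.31% of its exon bases with Srpk2 on the other strand, and no source says if the counting took account of strand. Setd1a shares 51.85% of its exon bases with Gm49388 on the same strand, a gene with 148 counts over the 10 libraries against 2998 for Setd1a. Estimated counts of Setd1a were not whole in 6 libraries. How far this overlap moves the values of Setd1a was not tested.

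Setd7, which adds a single methyl group to H3K4 and to other proteins and does not use the core subunits, had the lowest change of all 37. It had 144 and 144 CPM at D0, 122 and 127 at D1, 72.0 and 130 at D3, 65.2 and 30.2 at D5, and 64.4 and 61.8 at D7. Both D7 libraries lay below both D0 libraries (log2 change -1.19, SE 0.38, adjusted p = 0.0537), which missed the threshold, and with the block it passed (adjusted p = 0.0211). In the test for a difference among the 5 days it passed narrowly without the block (adjusted p = 0.0498) and also with it (0.0154). DESeq2 kept that call. RLE and upper-quartile scaling, a minimum count of 30, log2(TPM + 1) and thinning to the smallest library lost it. The Setd7 transcript is 7315 bases long, and its lowest value was in D5 replicate 2, where long transcripts were low.

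Per transcript length, each core subunit had a higher mean at D7 than each catalytic partner, though Rbbp5 and Kmt2b lay within their spread of each other. The deposited TPM values averaged 176 ± 21.6 for Dpy30, 98.3 ± 16.0 for Ash2l, 88.4 ± 13.1 for Wdr5 and 45.8 ± 4.54 for Rbbp5 at D7 (SD, n = 2). Ash2l and Wdr5 lay within their spread of each other. Among the 6 catalytic subunits that use the platform, Setd1a (36.4 ± 4.45 TPM at D7) and Kmt2b (36.1 ± 9.64) came first, and Setd1b (8.45 ± 0.38) came last. The summed TPM of the 4 core subunits was 441 and 376 at D7 against 171 and 186 at D0, while that of the 6 catalytic subunits was 112 and 131 at D7 against 94.97 and 131 at D0. The ratio of the sums was 1.80 and 1.42 at D0, 2.19 and 1.67 at D1, 2.83 and 1.22 at D3, 3.99 and 5.54 at D5, and 3.94 and 2.86 at D7. The lowest D7 ratio lay above the highest ratio of D0, D1 and D3. The core transcripts are 708 to 2866 bases long and the 6 catalytic ones 5759 to 12544, so a library's bias by length can enter the ratio. Genes over 6000 bases lay at a median log2 deviation of 0.177 and 0.206 at D0, -0.253 and 0.132 at D3, and 0.135 and 0.0697 at D7. How far this moved the ratio was not tested. A 2-sided exact permutation test of the ratio between D7 and D0 gave p = 0.333, the smallest that 2 libraries against 2 allow, so the ratio is a description.

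**Figure D3:**
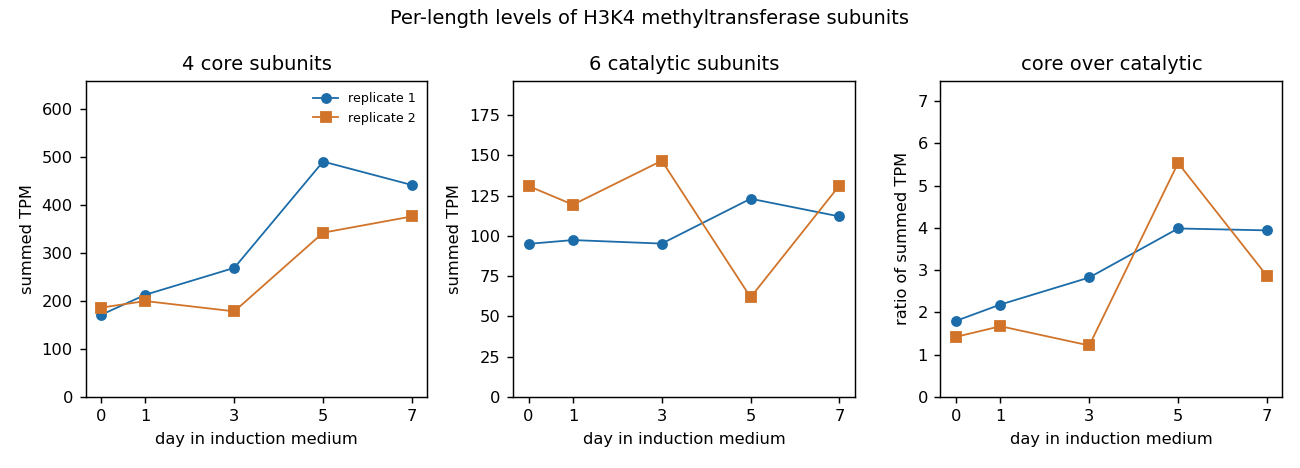
Summed deposited TPM (vertical) of the 4 core subunits, summed TPM of Kmt2a, Kmt2b, Kmt2c, Kmt2d, Setd1a and Setd1b, and the ratio of the 2 sums, by day (horizontal), 1 line a replicate. The core sum is 441 and 376 at D7 against 171 and 186 at D0, and the ratio of 5.54 at D5 belongs to the library in which long transcripts were low.

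Of 12 tested accessory subunits, which distinguish the single MLL and SET1 complexes, 0 were called between D7 and D0 (median log2 change 0.26), against 17.9% of all genes, and with the block 2 were higher, against 14.8%, Paxip1 and Psip1.

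The H3K4 erasers were led by Kdm5b, a JmjC enzyme that takes methyl groups from H3K4me3. Kdm5b had 119 and 104 CPM at D0, 79.4 and 59.1 at D1, 97.2 and 93.9 at D3, 245 and 95.9 at D5, and 320 and 192 at D7. Both D1 libraries were the lowest of the course and both D7 libraries were above both D0 libraries, by a log2 change of 1.20 (SE 0.42, adjusted p = 0.0734 without the block and 0.0105 with it). DESeq2 called Kdm5b as higher at D7 than at D0 without a block, and upper-quartile scaling did not. Over the 5 days the difference passed the test (adjusted p = 0.0379 without the block and 0.00215 with it).

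Kdm1a, the FAD-dependent eraser also called LSD1, had 140 and 126.5 CPM at D0, 119 and 88.2 at D1, 154 and 92.4 at D3, 190 and 114 at D5, and 211 and 199 at D7. Both D7 libraries lay above all others, and its log2 change of D7 over D0 was 0.62 (SE 0.34, adjusted p = 0.25). Of its partners tested, 2 of 11 were higher at D7 than at D0, against 9.15% of all genes. Rcor2, the CoREST paralog of pluripotent and neural progenitor cells, had 173 and 154 CPM at D7 against 32.8 and 40.4 at D0 (log2 change 2.17, SE 0.28, adjusted p = 0.000631). Zmym3, a zinc finger partner of the complex, had 107 and 82.1 CPM at D7 against 44.5 and 41.2 at D0 (log2 change 1.15, SE 0.31, adjusted p = 0.0261).

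Kdm5a and Kdm5c, which remove the same mark as Kdm5b, had log2 changes of -0.15 (SE 0.45) and 0.36 (SE 0.26), and neither was called. Kdm1b, the second FAD enzyme, was the least counted of the group, at 20.2 and 18.4 CPM at D7 against 10.8 and 18.7 at D0. Its exons share 9.19% of their bases with Dek on the other strand, a gene with 3942 counts over the 10 libraries against 344 for Kdm1b, and how far reads of Dek enter its values was not tested.

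Among the enzymes of H3K9, 2 of 6 erasers and 0 of 6 writers were called between D7 and D0, where 17.9% of all genes were called, and whether erasers and writers differed was not tested. Kdm3a and Kdm4b were 2.71 and 2.44 times as high at D7 as at D0. Kdm3a acts on mono- and dimethylated H3K9. Kdm4a, Kdm4b and Kdm4c act on the di- and trimethylated forms of H3K9 and also on those of H3K36, and are grouped here under H3K9. On GRCm38 Kdm3a (ENSMUSG00000053470) lies on chromosome 6, 71588972 to 71632990, minus strand, and Kdm4b (ENSMUSG00000024201) on chromosome 17, 56326062 to 56402870, plus strand.

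Kdm3a had 71.4 and 55.4 CPM at D0, 75.8 and 74.7 at D1, 82.8 and 70.8 at D3, 185 and 84.3 at D5, and 201 and 144 at D7. Both D7 libraries lay above all 6 libraries of D0, D1 and D3, and the log2 change of D7 over D0 was 1.44 (SE 0.37, adjusted p = 0.0221). Kdm4b had 19.6 and 32.2 CPM at D0, 22.8 and 20.6 at D1, 31.9 and 30.6 at D3, 44.9 and 45.6 at D5, and 62.9 and 61.8 at D7. From D1 on the replicates ran close together and each later day lay above the one before it, with a log2 change of D7 over D0 of 1.28 (SE 0.31, adjusted p = 0.0171).

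Kdm4c had 30.8 and 18.0 CPM at D0, 44.7 and 20.6 at D1, 48.3 and 30.6 at D3, 66.9 and 30.2 at D5, and 89.6 and 53.2 at D7. Replicate 1 was above replicate 2 on each of the 5 days, and within each replicate D7 was the highest day. On the log2(CPM + 1) scale D7 exceeded D0 by 1.51 in replicate 1 and 1.52 in replicate 2. The call depended on the fit (log2 change 1.54, SE 0.51, adjusted p = 0.0609 without the block and 0.000969 with it). DESeq2 and upper-quartile scaling called Kdm4c without a block, and RLE scaling did not.

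Kdm7a, a PHD and JmjC eraser of H3K9 and H3K27 dimethylation, was low, at 47.0 and 28.9 CPM at D7 against 18.6 and 8.23 at D0 (log2 change 1.48, SE 0.48, adjusted p = 0.0558 without the block and 0.0176 with it). Its D3 libraries, at 20.5 and 35.8 CPM, lay on both sides of the lower D7 value. Upper-quartile scaling called Kdm7a without a block, and DESeq2 did not. Kdm3b, the paralog of Kdm3a, had 129 and 136 CPM at D7 against 75.8 and 74.8 at D0, groups that did not overlap (log2 change 0.81, SE 0.43, adjusted p = 0.228). Kdm4a was the exception among the 6, with 95.3 and 99.9 CPM at D7 against 103 and 147 at D0 (log2 change -0.35, SE 0.27, adjusted p = 0.419).

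**Figure D4:**
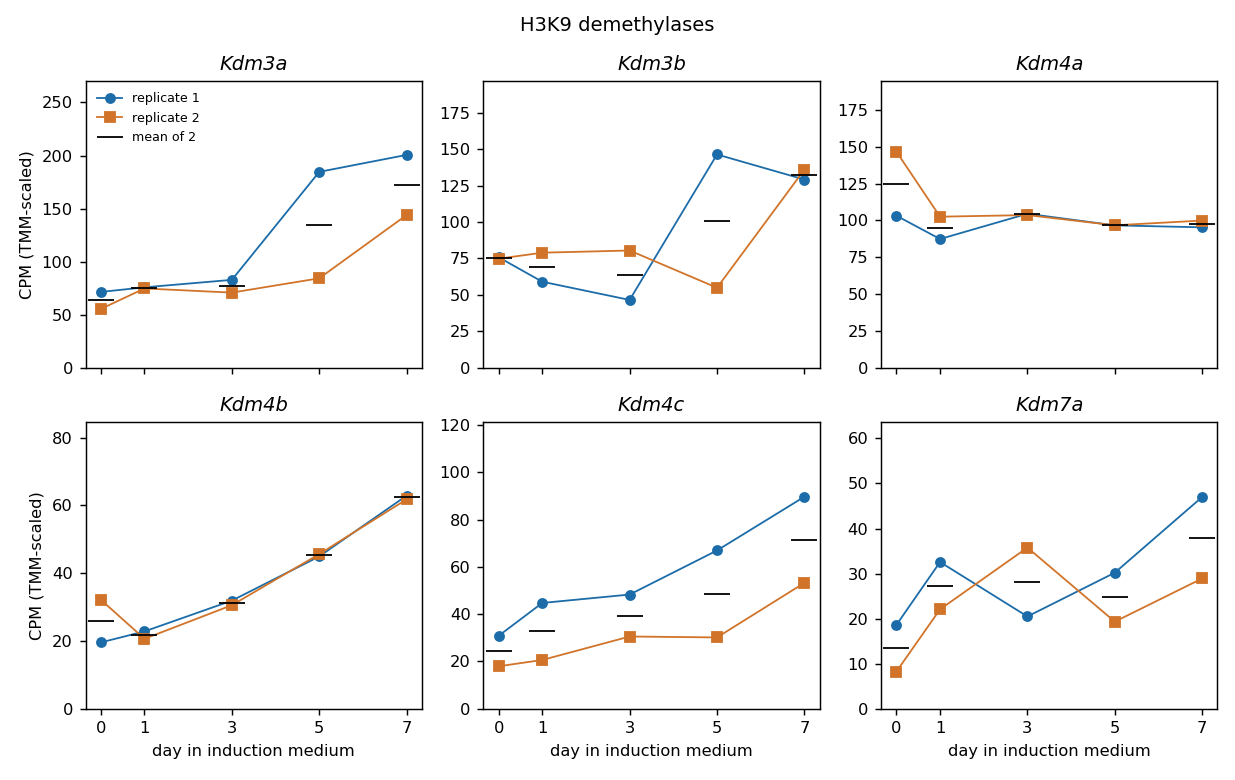
CPM (vertical, scaled by TMM) of the 6 H3K9 demethylases by day (horizontal), with a line for each replicate and a bar at the mean of the 2 libraries. The 5 genes other than Kdm4a have both D7 libraries above both D0 libraries, as did 34.0% of all tested genes. Kdm4b, for example, is at 62.9 and 61.8 CPM at D7 against 19.6 and 32.2 at D0.

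The H3K9 writers had a median log2 change of 0.14 between D7 and D0, against 1.36 for the erasers and 0.06 for all 12752 genes. Ehmt2, also called G9a, had the highest level of the writers per length (104.5 ± 19.2 TPM at D7 and 98.7 ± 15.7 at D0, SD, n = 2), and its log2 change was 0.03 (SE 0.35). Its partner Ehmt1 was at 0.22 (SE 0.28). Setdb1, which silences retroviral repeats, had 126 and 92.0 CPM at D7 against 66.5 and 86.8 at D0 (log2 change 0.52, SE 0.34, adjusted p = 0.346).

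Of the enzymes of pericentric heterochromatin, Suv39h1 had 52.4 and 66.6 CPM at D0, 65.7 and 71.2 at D1, 37.5 and 32.0 at D3, 46.9 and 46.4 at D5, and 48.3 and 75.6 at D7. Its D3 libraries were the lowest of the course (log2 change of D3 over D1 -0.97, unadjusted p = 0.0101, adjusted p = 0.363). Suv39h2 had 32.9 and 36.1 CPM at D7 against 17.1 and 20.96 at D0 (log2 change 0.86, SE 0.51, adjusted p = 0.29), and it overlaps Dclre1c on the other strand over 8.10% of its exon bases. Setdb2 was the rarest writer, with 16.5 and 3.29 CPM at D7 against 20.6 and 16.5 at D0, and in replicate 2 of D7 it rested on 5 counts.

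The summed TPM of the 6 erasers was 233 and 169 at D7 against 111 and 117 at D0, and that of the 6 writers was 236 and 252 at D7 against 198 and 235 at D0. Of 14 partners of H3K9 methylation tested, such as Trim28 and the HP1 proteins, 0 were called, against 17.9% of all genes, and 5 were higher with the block, against 14.8% of all genes called higher (Trim28, Cbx1, Atf7ip2, Mphosph8 and Uhrf1).

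Of the 2 H3K27 erasers neither was called in edgeR's TMM-scaled fit without the block, and Kdm6b was called with it. DESeq2 and upper-quartile scaling called Kdm6b without a block, and RLE scaling did not. Kdm6b, the inducible JmjC eraser also called JMJD3, had 51.4 and 81.6 CPM at D0, 61.5 and 101 at D1, 108 and 125 at D3, 88.7 and 70.4 at D5, and 116 and 152 at D7. Both D7 libraries lay above both D0 libraries (log2 change 1.02, SE 0.34, adjusted p = 0.0644 without the block and 0.0133 with it). Kdm6a, the X-linked eraser also called UTX, had 71.1 and 51.9 CPM at D7 against 59.2 and 52.4 at D0 (log2 change 0.15, SE 0.50, adjusted p = 0.877), groups that overlapped.

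Of the 6 members grouped under H3K36 and H3K79, 0 were called between D7 and D0, with or without the block. The shares of all genes were 17.9% without it and 28.5% with it. Nsd1, a dimethyltransferase, had 221 and 215 CPM at D7 against 121 and 153 at D0 (log2 change 0.67, SE 0.35, adjusted p = 0.233). Nsd2, its relative, was at 0.28 (SE 0.40), and Setd2, the enzyme of H3K36me3, at 0.04 (SE 0.33), with 154 and 140.0 CPM at D7 against 152 and 134 at D0. Ash1l, which is linked to H3K36 dimethylation, had 83.5 and 93.3 CPM at D7 against 144 and 128 at D0 (log2 change -0.63, SE 0.43, adjusted p = 0.371).

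Kdm2a, the member grouped as H3K36 eraser, had 143 and 142 CPM at D7 against 181 and 164 at D0 (log2 change -0.28, SE 0.30, adjusted p = 0.582). Its paralog Kdm2b, from the list of other lysine enzymes and named after its values were seen, had 176 and 193 CPM at D7 against 48.9 and 74.8 at D0 (log2 change 1.58, SE 0.30, adjusted p = 0.00518). Kdm2b was already at 226 and 290.3 CPM at D1 (log2 change over D0 2.07, SE 0.31, adjusted p = 0.00389).

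Dot1l, the H3K79 methyltransferase, had 124 and 164 CPM at D0, 216 and 246 at D1, 141 and 307 at D3, 160 and 158 at D5, and 142 and 183 at D7. Its D1 libraries lay above both D0 libraries (log2 change 0.69, SE 0.36, adjusted p = 0.388), and its D7 libraries overlapped those of D0 (log2 change 0.18, SE 0.36, adjusted p = 0.79). Of 13 partners tested, 1 was called between D7 and D0, against 17.9% of all genes, and with the block Mllt3 was called higher as well, against 28.5%. Mllt6, a PHD protein of the AF10 family, had 170.5 and 152 CPM at D7 against 47.0 and 71.9 at D0 (log2 change 1.45, SE 0.28, adjusted p = 0.00582).

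Over the whole set, 6 of the 37 were higher at D7 than at D0 and 0 were lower, which is 16.2% of the members, against 17.9% of all genes called in either direction and 9.15% called higher. The share called was thus close to that of all genes. The median log2 change was 0.40 for the members and 0.06 for all genes, and 28 of the 37 lay above 0. In 19 members both D7 libraries lay above both D0 libraries and in 6 below, against 34.0% and 30.4% of all genes. With the block 10 were higher and 1 lower, or 29.7%, against 28.5% of all genes. The genes added were Kdm4c, Kdm5b, Kdm6b and Kdm7a, all erasers, and Setd7.

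By role, 4 of 4 core subunits, 2 of 14 erasers and 0 of 19 writers were called, against 17.9% of all genes, and with the block 4, 6 and 1 were called, against 28.5%. Whether the roles differed was not tested. The median log2 change was 1.12 for the core subunits, 0.72 for the erasers and 0.05 for the writers. The calls rested on 2 libraries a day. Without D0 replicate 1 the count of members called was 0 (7.12% of all genes called) and without D7 replicate 1 it was 0 (6.53%). Without D0 replicate 2 it was 1 (7.25%) and without D7 replicate 2 it was 2 (10.5%), where the lone library left is assumed to vary like those of other days. Without D5 replicate 1 it was 11 (23%) and without D5 replicate 2 it was 11 (21.4%). None of the 6 called members changed direction in any of these fits, and their largest adjusted p ran from 0.139 (Wdr5) to 0.206 (Rbbp5). On the log2(TPM + 1) scale with limma 3 were called (Ash2l, Wdr5 and Dpy30), against 14.2% of all genes.

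**Figure D5:**
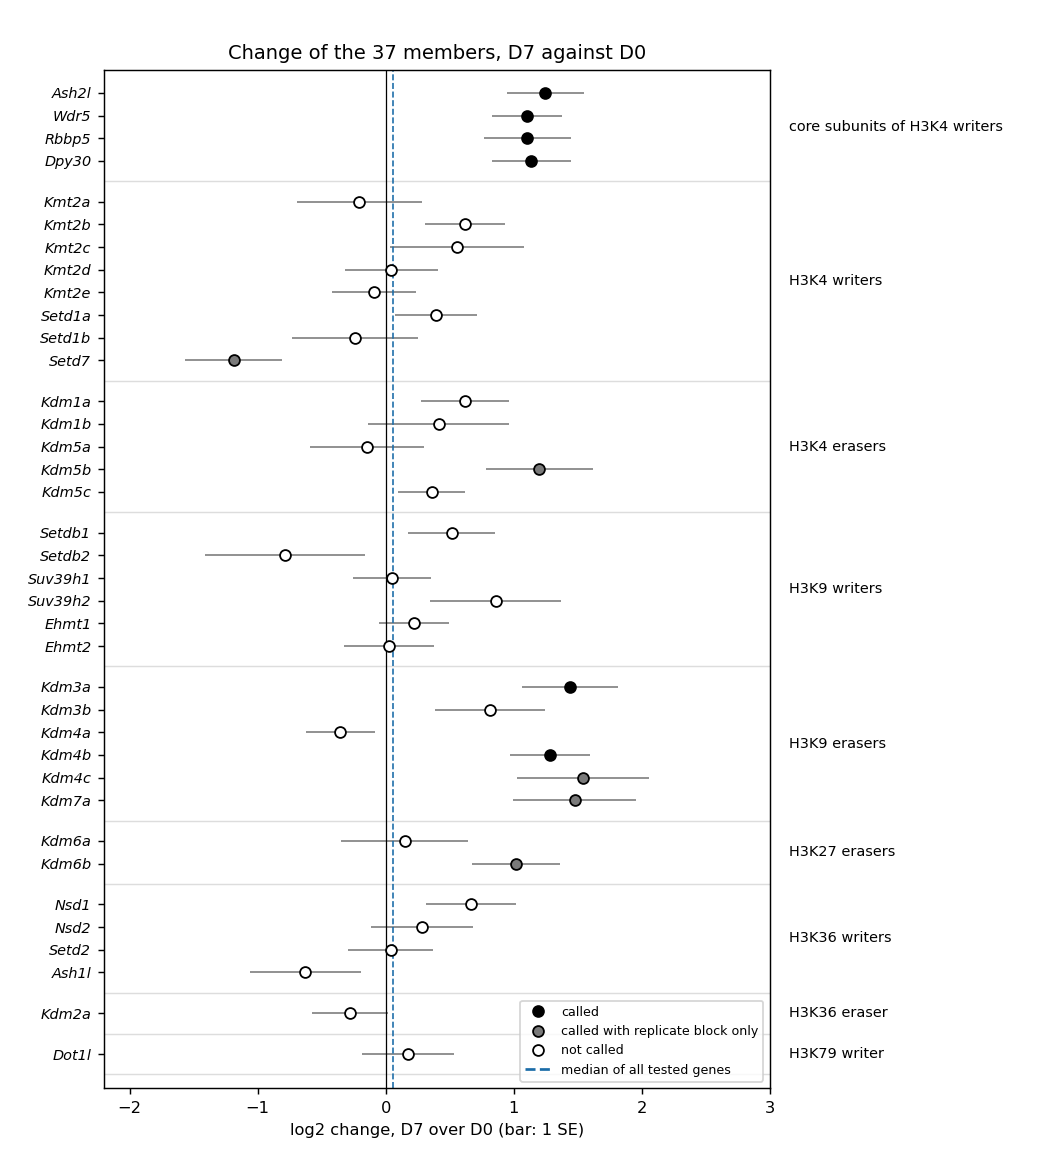
Log2 change of D7 over D0 (horizontal) for the 37 members, grouped by the mark written or erased, with bars of 1 SE on each side. Of the edgeR fits with and without the replicate block, black points were called without it and grey points only with it. The dashed line is the median of all tested genes (0.06). The 4 core subunits lie between 1.10 and 1.25 and the other 8 H3K4 writers between -1.19 and 0.62.

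Single steps between days held few calls in these libraries. Between D1 and D0, 0 members were called, against 4.52% of all genes (10.6% with the block, where it was again 0). An unadjusted p under 0.05 was reached by 0 members, against 2163 of all 12752 genes. Between D3 and D1, 0 were called against 0.0549% of all genes (1.62% with the block). The unadjusted p was under 0.05 in 1 member, against 1083 of all genes. Between D7 and D5, 0 were called against 0.0% (0.157% with the block). The unadjusted p was under 0.05 in 2 members, against 810 of all genes. With the block, too, 0 members were called in each of these steps, and DESeq2 called 0.

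Between D5 and D3, 0 members were called, against 0.0706% of all genes (3.3% with the block, again 0 members), and DESeq2 called 0. An unadjusted p under 0.05 was reached by 7 members, against 1502 of all 12752 genes. They were the 4 core subunits with log2 changes of 0.80 to 1.01, Kdm3a (0.82), and in the other direction Kmt2d (-1.02) and Setd7 (-1.04). For each core subunit both D5 libraries lay above both D3 libraries. The share of all genes placed this way was not computed, so this placement is not read as a result. Without D5 replicate 2 and without the block it was again 0, against 2.06% of all genes. In a fit with the block and without D5 replicate 2, added after the data were seen, 7 members were higher at D5 than at D3, against 6.63% of all genes called higher. They were Ash2l (log2 change 0.98, SE 0.23, adjusted p = 0.011), Wdr5, Rbbp5, Dpy30, Kdm5b, Kdm3a and Kdm3b. This fit has a single D5 library. With all libraries, the block and an offset for transcript length, 3 members were higher (Ash2l, Wdr5 and Kdm5b) and 1 was lower (Setd7), against 6.24% of all genes called either way.

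Between D7 and D3, 0 members were called, against 5.37% of all genes. An unadjusted p under 0.05 was reached by 8 members, against 2963 of all 12752 genes. With the block 8 were higher, against 9.5% of all genes called higher, and DESeq2 called 3, against 7.77%. The 8 were Ash2l, Wdr5, Rbbp5, Kdm1a, Kdm3a, Kdm4b, Kdm4c and Kdm5b. Ash2l had a log2 change of 1.03 (SE 0.30, adjusted p = 0.0697 without the block and 0.0108 with it). Dpy30, already high at D5, had 0.50 (adjusted p = 0.216 with the block). In the test over all days 7 members were called, against 19.1% of all genes, namely Ash2l, Wdr5, Dpy30, Kdm3a, Kdm4b, Kdm5b and Setd7. With the block 11 were called, against 34.9%. Those added were Rbbp5 (adjusted p = 0.0108 with the block), Kdm1a (0.0354), Kdm4c (0.00423) and Kdm6b (0.0374).

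The other lysine methyltransferases and demethylases give a setting for these counts. Of 33 tested, 6 were higher and 2 lower at D7 than at D0, against 17.9% of all genes called. With the block 9 were higher and 3 lower, against 28.5%, and those added were Hspbap1, Smyd4 and Setd5 (higher) and Nsd3 (lower), named after their values were seen. Among those called without the block, the 4 with the largest changes were Prdm14, Mecom, Etfbkmt and Smyd3. Prdm14, a PR-domain factor of pluripotent cells, had 0 counts in both D0 libraries and 13.1 and 3.94 CPM at D7. It had passed the filter on low counts only through later days. Mecom, another PR-domain factor, had 3.48 and 8.54 CPM at D7 against 33.8 and 24.0 at D0 (log2 change -2.37, SE 0.55, adjusted p = 0.0131). Etfbkmt, a methyltransferase of mitochondria, had 11.1 and 8.54 CPM at D7 against 1.96 and 2.99 at D0. For Smyd3, a SET and MYND protein, it was 18.3 and 23.0 CPM at D7 against 4.89 and 5.24 at D0 (log2 change 2.01, SE 0.47, adjusted p = 0.0138). The rest of those called without the block were Kdm2b, Kmt5c and Setd6 (higher) and Phf2 (lower). The Y-linked relatives of 2 members, Kdm5d and Uty, had log2 changes of 0.14 (SE 0.51) and 0.01 (SE 0.72).

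The cell population changed over the same days, and its part in these results was not tested. In bulk RNA, fewer cells of a type and less RNA per cell cannot be told apart. Of all genes 17.9% were called between D7 and D0, with 9.15% called higher, and 28.5% were called with the block. Of 14 fibroblast markers 11 fell, or 12 with the block (Dcn added). The 14 summed to 2505 to 3690 CPM at D7 against 20400 to 24220 CPM at D0. All 10 pluripotency markers rose, to a sum of 1301 to 1697 CPM at D7 against 7.83 to 14.2 CPM at D0, where those at or near 0 had passed the filter through later days. Of 5 endothelial markers tested 4 rose, with a sum of 121 to 133 CPM at D7 against 20.6 to 26.2 CPM at D0, most of it from Pecam1, while Cdh5 had 11.3 and 15.1 CPM at D7. Macrophage and erythroid lists summed to at most 29.4 and 16.4 CPM in any library. The 10 proliferation markers held 0 called genes between D7 and D0. At D5 over D3, 0 were called, and 4 were higher with the block, against 3.3% of all genes called either way. At D7 over D3, 2 were higher, against 5.37% of all genes called either way. With the block 9 were higher, against 9.5% of all genes called higher. The 10 markers summed to 1809 to 2002 CPM at D0, to 672 to 1119 CPM at D3 and to 1954 to 2215 CPM at D7.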

How the data were processed

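Messenger RNA was sequenced from 10 libraries, 2 for each of 5 days. Per the submitters' processing notes, bcl2fastq, Bowtie2 and RSEM were used with the mm10 build. Tool versions, the annotation release and strand use are not given. For every sample the labels name 2 library kits and do not assign them. Implied fragment lengths were 136 to 158 bases (replicate 1) and 199 to 204 bases (replicate 2).

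Per the file headers, each deposited file is an RSEM gene table. The deposited expected counts are RSEM's estimates for the authors, not normalised and not always whole, and the deposited TPM values are RSEM's per-length levels for the authors. Of 54752 gene identifiers 54723 were named through GENCODE M21 (GRCm38), and the 29 without a name took at most 0.00179% of a library.

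After rounding, the expected counts went into edgeR 4.0.16 under R 4.3.3 (TMM scaling, a minimum count of 10, quasi-likelihood F tests). All 10 libraries shared one fit by day, without a block, and adjustment ran over 12752 genes, with calls under 0.05. SEs were derived from the log2 change and F (change over root F). CPM are TMM-scaled. On simulated data for D7 against D0 (12233 genes) it recovered 4% of 2-fold and 66% of 4-fold changes, so a member not called may still differ by such folds. Alternatives used RLE and upper-quartile scaling, other filters, DESeq2 1.42.0, limma 3.58.1 (voom, and log2(TPM + 1)), thinning to the smallest library, leaving out each library, and the replicate number as a block. Deviations of same-numbered libraries from their day means correlated across genes at 0.273 to 0.436 for all 10 pairs of days, so the numbers were taken to pair the libraries, and blocked values stand beside results they change. An offset for a smooth trend with transcript length, and fits without D5 replicate 2 with the block, were chosen after seeing the data.

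Replicates of a day differed beyond counting noise on every day. Reads carry no molecular identifiers, so the counting limits cover counting error only. The members, the lists and their groups were chosen with earlier results of these data known. Values are given for all 37 members, and from each list of partners for up to 4 called genes with the largest change. RSEM shares reads between overlapping or similar genes by estimation; Kdm1b had estimated counts that were not whole in 10 of 10 libraries, Kmt2e in 9, and Wdr5, Dpy30, Kdm3a and Kdm4b in 0.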

Additional observations from a re-analysis of the deposited data

How the results depend on the processing

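Between D7 and D0, 6 members were called, and the same 6 were called with RLE scaling and with a minimum count of 30. The share of all genes called, in brackets from here on, was 17.9%. With the replicate block the count was 11 (28.5%), with no filter on low counts 11 (10.6%), with DESeq2 10 (17.5%), with only the libraries of the days compared 12 (26.8%), and with limma on log2(TPM + 1) 3 (14.2%). Leaving out each library gave 0 to 11 (6.53% to 23%). With the length-trend offset it was 12 (19.6%), with that offset and the replicate block 15 (33.5%), and with the replicate block without D5 replicate 2 it was 17 (35.6%), the last 3 chosen after seeing the data. Upper-quartile scaling called 9 (18.3%) and moved the median log2 change of all genes to 0.19 from 0.06 under TMM, so changes on that scale are read against 0.19. Between D7 and D3 the count was 0 (5.37%), and it was 8 with the block (18.4%), 3 with DESeq2 (7.77%), 2 with no filter (6.11%) and 2 with only the days compared (10.5%), 0 to 4 leaving out each library (0.0358% to 11.8%), 1 with the offset (6.44%), 11 with the offset and the block (24.1%), and 13 with the block without D5 replicate 2 (27.3%). For any day it was 7 (19.1%), then 11 with the block (34.9%), 1 on log2(TPM + 1) (13.4%), 1 to 13 leaving out each library (8.96% to 27%), 18 with the offset and the block (41.9%), and 18 with the block without D5 replicate 2 (45.1%). Between D1 and D0 the last 2 fits called 2 members each (Dot1l higher and Kdm5b lower; 13.9% and 15.9%), between D3 and D1 the last called 1 (Suv39h1, lower; 5.74%), and between D5 and D3 they called 4 (6.24%) and 7 (11.7%). Between D7 and D5 the only call, of Kmt2a, came without D5 replicate 1. That fit rests D5 on the library in which long transcripts were low, so the call is not read as a result. Kmt2a had 134.5 CPM in D5 replicate 1 and 34.0 CPM in D5 replicate 2. Of the 11 called between D7 and D3 with the offset and the block, 9 were higher and 2 lower (Kmt2d and Setd7). The cause of these shifts was not tested. The block changed no other call of a member.

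Of 851 values of single members under the 23 alternatives, 64 passed the threshold where the value in the report did not, and 27 did not where it did. No called value changed sign. In 24 values of 11 members, called neither way, the sign differed, all in members whose reported log2 change was within 0.28 of 0. Depth limits the rare members: 3 counts stand for up to 2.26 CPM in replicate 2, close to the 3.29 CPM of Setdb2 in D7 replicate 2.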
